A study of Homo sapiens with 8 samples.

Results

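The report concerns 10 nuclear genes whose proteins copy mitochondrial DNA, transcribe it and keep its RNA stable: POLRMT, TFAM, TFB1M, TFB2M, TEFM, POLG, POLG2, TWNK, LRPPRC and SLIRP. They were chosen by symbol from a count table of 60617 genes, and all 10 were found and passed the filter on low counts that left 17693 genes for testing. RNA was sequenced from MCF-10A, a widely used line of breast epithelium that does not form tumours, grown with horse serum, epidermal growth factor, hydrocortisone, insulin and cholera toxin. The 4 groups were Empty cells without drug, Empty cells given 1 µM JG-98 for 12 h, NeuT cells without drug, and NeuT cells given 1 µM JG-98 for 12 h, with 2 libraries each. JG-98 is an inhibitor of the chaperone Hsp70, and the series asked about the drug sensitivity of transformed cells. Not given in the labels are the construct in NeuT or Empty cells, the promoter that drives it, and whether a line is a clone or a pool.

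Mitochondria keep a small circular genome that encodes subunits of the respiratory chain together with the rRNAs and tRNAs needed to translate them. Every protein that reads this genome is encoded in the nucleus. POLRMT is the RNA polymerase, TFAM bends and packages the DNA and recruits the polymerase to promoters, TFB2M melts the promoter, and TEFM keeps the polymerase moving. TFB1M is a related protein that methylates the small rRNA. POLG and its accessory subunit POLG2 replicate the DNA behind the helicase TWNK, using RNA primers that POLRMT makes. LRPPRC and SLIRP form a complex that binds and stabilises mitochondrial mRNAs.

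Libraries held 37341458 counts for replicate 1 of the Empty cells given JG-98 and 55050996 to 56861971 for the other 7. RNA was selected by poly(A), and the labels do not say whether the 2 libraries of a group came from separate cultures, so p-values measure only the spread between these libraries, which may be technical. The basal breast markers KRT5, KRT14, KRT17, CDH3 and LAMB3 were at 664 CPM (counts adjusted for library size, with TMM factors) or more in every library. TP63 lay between 2.70 and 9.44 CPM. Of the genes of other cell types, PTPRC and CD68 (immune) and PGR (luminal) had at most 5 counts in any library, while ESR1 (luminal) lay between 11.3 and 14.9 CPM, PECAM1 (endothelial) between 7.85 and 15.0 CPM and COL1A1 (fibroblast) between 4.70 and 5.83 CPM. The second markers of the last pair of types, CDH5 and PDGFRB, reached at most 0.621 and 0.817 CPM. With 2 libraries against 2, an exact two-sided permutation test of 1 gene cannot go below 0.333, so all tests below are edgeR quasi-likelihood tests with Benjamini-Hochberg adjustment over the 17693 genes, and "called" means an adjusted p under 0.05. In such bulk RNA, a lower share of reads from each cell and fewer cells with the transcript cannot be told apart.

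The 10 genes differed widely in level once counts were divided by exonic length (RPKM, CPM per kilobase of exon). SLIRP had a lowest, median and highest level of 17.1, 21.9 and 24.1 RPKM over the 8 libraries, and LRPPRC 18.6, 21.1 and 24.4 RPKM. SLIRP was above its partner LRPPRC in only 4 of 8 libraries, so the order of the first pair is not set. Exonic length here counts all annotated exons of a gene (2631 bases for SLIRP, 10028 for LRPPRC), not the transcripts present. The order of genes holds for this measure only, and levels per transcript were not estimated. TFB2M followed with a median level of 16.3 RPKM (range 12.9 to 19.7). TFAM had a median of 13.6 RPKM (10.5 to 17.1) and POLRMT one of 12.8 RPKM (9.76 to 14.4), and TFAM was the higher gene in 6 of 8 libraries. POLG stood at a median of 9.82 RPKM (8.51 to 10.6) and TWNK at 7.72 RPKM (6.06 to 9.72). TFB1M at 4.75 RPKM, TEFM at 2.39 RPKM and POLG2 at 1.67 RPKM were the lowest, with ranges that did not overlap each other or the range of TWNK. For every other pair of neighbours in this order the higher gene was above the lower in 8 of 8 libraries.

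**Figure D1:**
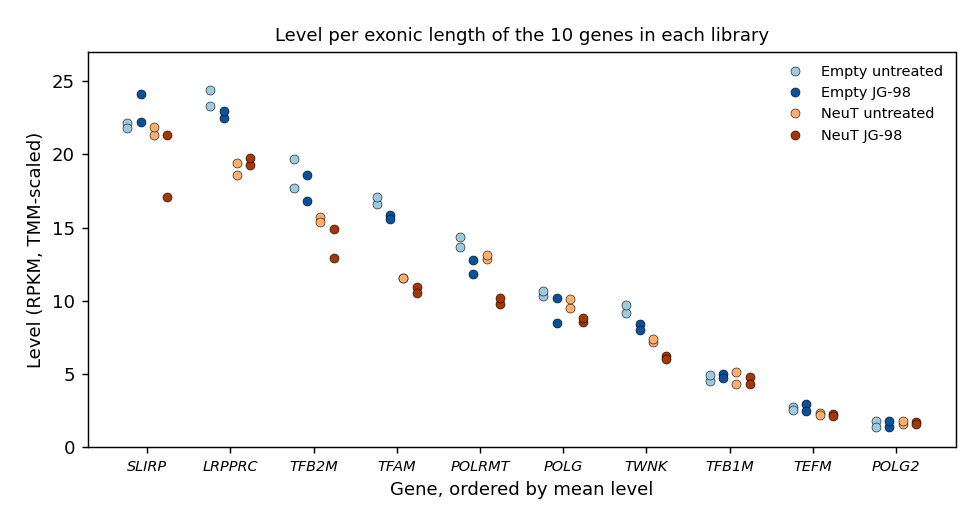
Level of each of the 10 genes per exonic length (RPKM, vertical axis from 0) in the 8 libraries, genes ordered by mean level and points coloured by group. SLIRP and LRPPRC lie highest, between 17.1 and 24.4 RPKM, and POLG2 lowest, between 1.37 and 1.79 RPKM.

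Exons of several members share bases with exons of another gene, and whether the counting used strand is not given in the sources used here, so part of their reads could belong to the neighbour. The shared part was 38.7% of exonic bases for TFB1M (with TIAM2, on the opposite strand, and ENSG00000235381) and 20.5% for TEFM. It was 14.9% for SLIRP (with SNW1 and C14orf178), 7.66% for POLG (with FANCI) and 3.6% for TWNK (with MRPL43). It was 0 for POLRMT, TFAM, TFB2M, POLG2 and LRPPRC.

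POLRMT had the largest change of the 10 genes with the drug in NeuT cells. The gene (ENSG00000099821, protein coding, GRCh38 chromosome 19, 617221 to 633537, minus strand) had 72.7 and 69.3 CPM in Empty cells without drug and 59.9 and 64.8 CPM with it. In NeuT cells it had 65.0 and 66.5 CPM without drug and 49.4 and 51.6 CPM with it. Treated libraries lay below untreated ones in each line without overlap, and the treated NeuT pair was the lowest of the 4 groups. Such a gap downward was common, at 22.2% of all genes in Empty and 22.9% in NeuT cells. Among the 10 members 5 had it in Empty and 6 in NeuT cells. The log2 change was -0.38 in NeuT cells (SE 0.064, adjusted p = 0.00258), from a mean of 65.8 ± 1.06 to 50.5 ± 1.6 CPM (SD, n = 2 libraries, edgeR across all genes), and POLRMT was called lower. Without replicate 2 of the untreated NeuT cells that call was lost, with a log2 change of -0.37 and an adjusted p of 0.0665 by edgeR. The log2 change in Empty cells was -0.19 (SE 0.064, adjusted p = 0.298), from 71.0 ± 2.41 to 62.3 ± 3.50 CPM (SD, n = 2 libraries, edgeR), and did not pass. The difference between the 2 changes was -0.19 (SE 0.090, adjusted p = 0.633, edgeR) and did not pass either. In the authors' deposited table the POLRMT change was -0.38 in NeuT cells with an adjusted p of 0.00545, and in their table for Empty cells it was -0.20 with an adjusted p of 0.279.

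Of the 10 members, 1 (POLRMT) was called with JG-98 in NeuT cells, where 3.01% of all genes were called and 1.01% were called lower. In Empty cells edgeR called 0 of 10, where 0.339% of all genes were called and 0.0791% lower. There 3 members (POLRMT, POLG and TWNK) had an unadjusted p under 0.05 by edgeR, against 1739 of the 17693 genes. DESeq2 and limma-voom also called 0 in Empty cells. The median log2 change of the members was -0.08 in Empty cells and -0.13 in NeuT cells, against -0.0033 and 0.00021 over all genes. Averaged over the lines, 2 members (POLRMT and TWNK) were called lower, where 3.97% of all genes were called and 1.58% lower. The difference in change between lines gave 0 called members by edgeR, DESeq2 and limma-voom, where edgeR called 0.00565% of all genes. By edgeR 1 member (POLRMT) had an unadjusted p under 0.05, against 1378 of the 17693 genes.

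TFAM (ENSG00000108064, chromosome 10, 58385345 to 58399220, plus strand) is the member whose level separated the lines most. Its levels were 87.7 and 90.4 CPM in untreated and 83.6 and 82.4 CPM in treated Empty cells. In NeuT cells they were 61.2 and 61.1 CPM without drug and 57.9 and 55.5 CPM with it. All 4 NeuT libraries lay below all 4 Empty libraries. The log2 difference of NeuT from Empty cells was -0.54 without drug (SE 0.058, adjusted p = 9.06e-07, edgeR) and -0.55 with drug (SE 0.059, adjusted p = 8.31e-07, edgeR). Its change with the drug was -0.10 in Empty cells (adjusted p = 0.597, edgeR) and -0.11 in NeuT cells (adjusted p = 0.396, edgeR), and neither passed.

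The other factors of the polymerase, TFB2M, TEFM and TFB1M, did not pass the test with the drug in either line. TFB2M (ENSG00000162851, chromosome 1, 246540561 to 246566261, minus strand) had 35.1 and 31.6 CPM in untreated and 33.2 and 30.01 CPM in treated Empty cells, and 28.0 and 27.4 CPM in untreated and 26.6 and 23.1 CPM in treated NeuT cells. NeuT libraries lay below Empty libraries at each condition, and TFB2M was called lower in NeuT cells without drug (log2 difference -0.27, SE 0.086, adjusted p = 0.0187, edgeR) and with it (-0.35, SE 0.087, adjusted p = 0.00389). The first call was lost without replicate 1 of the untreated Empty cells or without either untreated NeuT library (adjusted p = 0.0884 to 0.218), and the second without replicate 1 of the treated Empty cells (0.0575). TEFM (ENSG00000172171, chromosome 17, 30897336 to 30906238, minus strand) had 7.24 and 6.75 CPM in untreated and 7.82 and 6.51 CPM in treated Empty cells, and 6.10 and 5.75 CPM in untreated and 5.92 and 5.63 CPM in treated NeuT cells. Its 4 NeuT libraries were below its 4 Empty libraries, with log2 differences of -0.24 without drug (adjusted p = 0.142, edgeR) and -0.30 with it (adjusted p = 0.0660, edgeR) that did not pass. The second passed with total counts in place of TMM scaling (-0.38, adjusted p = 0.0231) and without replicate 2 of the treated Empty cells (-0.44, adjusted p = 0.0333). TFB1M (ENSG00000029639, chromosome 6, 155256134 to 155314493, minus strand), the rRNA methyltransferase, ranged from 17.7 to 21.1 CPM with overlapping groups in every comparison, and its log2 differences lay between -0.09 and 0.04 with standard errors of 0.069 to 0.14.

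**Figure D2:**
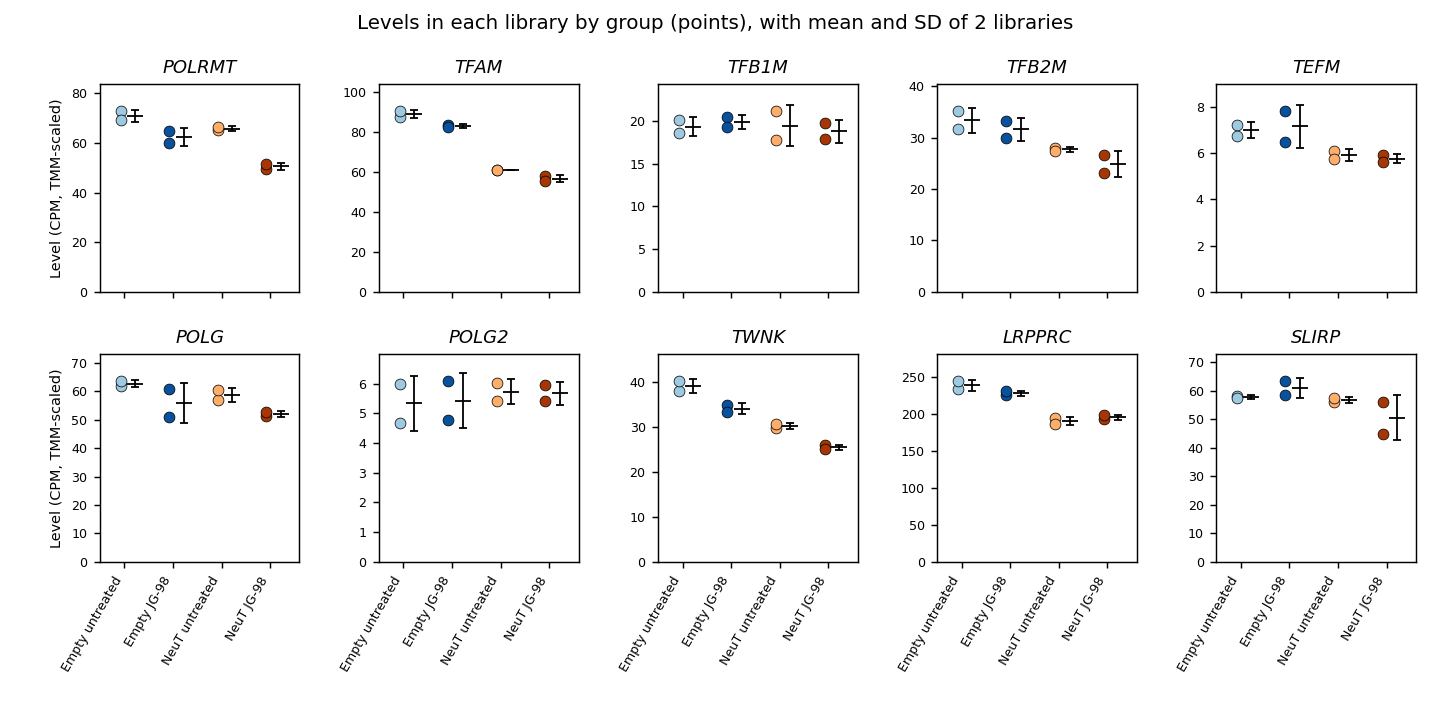
Level of each of the 10 genes (CPM, TMM-scaled, vertical axes from 0) in each library, by group, with the mean and SD of 2 libraries beside the points. POLRMT falls from 65.8 to 50.5 CPM in NeuT cells, and TFAM, TWNK and LRPPRC lie lower in NeuT than in Empty cells with and without drug.

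Among the 3 replication genes, TWNK was called and the polymerase subunits were not. TWNK (ENSG00000107815, chromosome 10, 100987367 to 100994403, plus strand), the helicase, had 38.0 and 40.2 CPM in untreated and 34.9 and 33.2 CPM in treated Empty cells. In NeuT cells it had 29.7 and 30.6 CPM without drug and 25.9 and 25.1 CPM with it. Its groups stepped down in that order with no overlap between neighbours. The log2 change with JG-98 was -0.20 in Empty cells (SE 0.070, adjusted p = 0.314, edgeR) and -0.24 in NeuT cells (SE 0.072, adjusted p = 0.0801, edgeR). Averaged over the lines it was -0.22 (SE 0.050, adjusted p = 0.0179, edgeR), which passed. That call was lost without replicate 2 of the treated Empty cells or without any 1 of the 4 untreated libraries, with log2 changes of -0.24 to -0.20 and an adjusted p of up to 0.127 by edgeR. Between lines TWNK was called lower in NeuT cells without drug (log2 difference -0.38, SE 0.070, adjusted p = 0.000339, edgeR) and with it (-0.42, SE 0.072, adjusted p = 0.000144, edgeR).

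POLG (ENSG00000140521, chromosome 15, 89305198 to 89334861, minus strand), the catalytic subunit, had 61.8 and 63.6 CPM in untreated and 50.9 and 60.9 CPM in treated Empty cells, and 56.9 and 60.5 CPM in untreated and 51.2 and 52.9 CPM in treated NeuT cells. Treated libraries were below untreated ones in each line, and the treated Empty pair was the most widely spread. The log2 change was -0.16 in Empty cells (SE 0.076, adjusted p = 0.502, edgeR), -0.17 in NeuT cells (SE 0.076, adjusted p = 0.275, edgeR) and -0.17 on average (SE 0.054, adjusted p = 0.102, edgeR). Without replicate 2 of the treated Empty cells the average became -0.24 with an adjusted p of 0.0204 by edgeR, and with no filter on low counts its adjusted p was 0.0196. POLG2 (ENSG00000256525, chromosome 17, 64477785 to 64497054, minus strand), the accessory subunit, ranged from 4.68 to 6.09 CPM, its groups overlapped in every comparison, and its log2 differences lay between -0.05 and 0.10 with standard errors of up to 0.22.

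The RNA-binding pair did not pass in any comparison of treated with untreated cells in the full fit. LRPPRC (ENSG00000138095, chromosome 2, 43886224 to 43995989, minus strand) had 234.0 and 245 CPM in untreated and 225 and 231 CPM in treated Empty cells, and 194 and 187 CPM in untreated and 193 and 198 CPM in treated NeuT cells. Every NeuT library lay below every Empty library, with a log2 difference of -0.33 without drug (SE 0.053, adjusted p = 8.34e-05, edgeR) and -0.22 with it (SE 0.053, adjusted p = 0.00282, edgeR). Its change with the drug was -0.07 in Empty cells (adjusted p = 0.722, edgeR) and 0.04 in NeuT cells (adjusted p = 0.803, edgeR). SLIRP (ENSG00000119705, chromosome 14, 77708071 to 77761104, plus strand) had 58.3 and 57.4 CPM in untreated and 63.4 and 58.4 CPM in treated Empty cells, and 56.2 and 57.6 CPM in untreated and 56.1 and 44.9 CPM in treated NeuT cells. Replicate 2 of the treated NeuT cells stood well below the other 7 libraries. The log2 change of SLIRP in NeuT cells was -0.17 (SE 0.085, adjusted p = 0.346, edgeR), and without replicate 1 of the treated NeuT cells, which leaves the low library alone in its group, -0.34 with an adjusted p of 0.00153. SLIRP was called lower in treated NeuT than treated Empty cells (log2 difference -0.27, SE 0.086, adjusted p = 0.0191, edgeR), and this call was lost without replicate 2 of the treated NeuT cells (-0.11, adjusted p = 0.220) or replicate 1 of the treated Empty cells (-0.21, adjusted p = 0.156), and when only the 4 treated libraries were fitted (-0.27, adjusted p = 0.0597).

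Between lines, 4 members (TFAM, TWNK, LRPPRC and TFB2M) were called lower in untreated NeuT than untreated Empty cells and 0 higher, where 42.0% of all genes were called and 20.8% lower. With the drug, 6 were called lower (those 4 with POLRMT and SLIRP), where 41.7% of all genes were called and 20.0% lower. POLRMT differed between lines by -0.11 without drug (SE 0.063, adjusted p = 0.177, edgeR) and by -0.31 with it (SE 0.064, adjusted p = 0.000969, edgeR). With total counts in place of TMM the first was -0.18 and passed (adjusted p = 0.0306). The median log2 difference of the members was -0.17 without drug and -0.29 with it, against -0.016 and -0.0011 over all genes. Comparisons of drug and of line share libraries, so the values of 1 member across them are not independent.

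The 3 genes whose log2 level over the 8 libraries was most like that of POLRMT, among 10419 genes averaging 5 CPM or more, were MYBBP1A (Pearson r = 0.985), ARF1 (r = 0.977) and SLC4A1AP (r = 0.973). These are descriptions over 8 libraries that share their groups and carry no test. MYBBP1A had 178 and 178 CPM in untreated and 162 and 171 CPM in treated Empty cells, and 169 and 171 CPM in untreated and 149 and 155 CPM in treated NeuT cells.

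The promoter set used here (RefSeq, GRCh38.p14, 250 bases before to 50 after the gene start) had no entry for TWNK. Promoters of the other 9 of the 10 members were read from it. They were searched on both strands for the core of the NRF1 site, GCGCNNGCGC, since NRF1 is a textbook activator of genes for mitochondrial proteins. It was found in POLRMT, TFAM, TFB1M and POLG2, against 8.32% of 35116 promoter windows of the same length. The stretches are shown to set these 4 genes side by side, in the direction of each gene, with the core in capitals. In POLRMT 2 more matches, at -30 and -18, overlap the one shown at -24.
POLRMT, chr19:633538-633591, minus strand: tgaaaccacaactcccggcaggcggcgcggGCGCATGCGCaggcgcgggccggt
TFAM, chr10:58385317-58385386, plus strand: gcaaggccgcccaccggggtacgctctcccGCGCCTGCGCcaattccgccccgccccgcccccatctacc
TFB1M, chr6:155314577-155314646, minus strand: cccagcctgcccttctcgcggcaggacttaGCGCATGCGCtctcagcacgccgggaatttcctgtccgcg
POLG2, chr17:64497055-64497098, minus strand: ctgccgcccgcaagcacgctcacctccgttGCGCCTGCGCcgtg
The ETS core CCGGAAG, the site type bound by the GABP complex, was found in POLRMT, TFB1M, TEFM, POLG2 and SLIRP, against 10.3% of windows, and did not overlap the NRF1 cores. The CARE core TGATGNAA, the type bound by ATF4 dimers, was found in 0 of the 9, against 3.62% of windows. These are matches of letters in 1 window, and binding was not measured. Promoters with an NRF1 core belonged to members that were called between untreated lines (TFAM) and to members that were not (POLRMT, TFB1M and POLG2). Of the other members called there, LRPPRC and TFB2M had no NRF1 core and TWNK had no window.

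All 9 tested nuclear copies of mitochondrial genes had fewer reads with the drug in each line on scaled levels, and 5 of the 9 were called lower in Empty cells and 7 in NeuT cells, where 0.0791% and 1.01% of all genes were called lower. Such copies are pseudogenes, stretches of mitochondrial DNA inserted long ago into the chromosomes. The table lists 37 genes of the mitochondrial chromosome itself with 0 counts in all, so mitochondrial transcripts as such are not measured here. It lists 404 pseudogenes of mitochondrial genes, of which 36 had a count and 9 passed the filter. A block of chromosome 1 from 629062 to 634922 with 7 copies held 98.9% of their counts.

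Copies in this block are nearly identical to the mitochondrial genes. MTATP6P1 (chromosome 1, 633696 to 634376, unprocessed pseudogene, GENCODE 29) matches MT-ATP6 at 98.5% of 681 bases, and 46.7% of its 50-base and 11.9% of its 100-base windows occur letter for letter in mitochondrial genes. MTND2P28 matches MT-ND2 at 98.4% (43.5% of 50-base windows shared). MTND4P12, on chromosome 5 outside the block, matches MT-ND4 at 95.7%, with 3.46% of 50-base windows and 0 of 100-base windows shared. The stretches of 80 bases with the most mismatches are printed below from the GENCODE 29 transcripts, because these letters are where a read could tell a copy from the mitochondrial gene. Capitals mark bases that differ.
MTATP6P1, chr1:633808-633887, plus strand: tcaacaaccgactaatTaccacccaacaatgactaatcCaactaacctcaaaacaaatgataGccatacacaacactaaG
MT-ATP6, chrM:8639-8718, plus strand: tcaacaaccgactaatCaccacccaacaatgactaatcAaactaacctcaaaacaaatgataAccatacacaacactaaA
MTND2P28, chr1:630049-630128, plus strand: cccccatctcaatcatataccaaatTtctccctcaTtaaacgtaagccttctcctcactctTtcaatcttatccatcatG
MT-ND2, chrM:4879-4958, plus strand: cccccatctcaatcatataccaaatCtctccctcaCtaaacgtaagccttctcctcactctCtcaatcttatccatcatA
MTND4P12, chr5:134927851-134927930, minus strand: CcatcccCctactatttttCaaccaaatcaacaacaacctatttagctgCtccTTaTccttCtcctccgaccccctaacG
MT-ND4, chrM:10866-10945, plus strand: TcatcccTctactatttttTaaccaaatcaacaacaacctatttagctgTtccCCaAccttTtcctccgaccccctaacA
How the submitters' counting treated reads that match more than 1 place is not given in the sources used here, and whether reads counted on a copy came from the copy or from the mitochondrial gene was not tested.

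MTATP6P1, the copy with the most reads, had 367 and 425 CPM in untreated and 144 and 108 CPM in treated Empty cells, and 369 and 373 CPM in untreated and 119 and 92.8 CPM in treated NeuT cells. Every treated library was below every untreated one by a wide gap. Its log2 change was -1.81 in NeuT cells (SE 0.19, adjusted p = 0.0124, edgeR), which passed, and -1.66 in Empty cells (SE 0.18, adjusted p = 0.0623, edgeR), which did not. The Empty call depends on the fit, since edgeR without robust estimation gave an adjusted p of 3.69e-05, DESeq2 gave 2.33e-13, and the authors' deposited table gives 1.22e-06. The NeuT call was lost without replicate 2 of the treated NeuT cells (adjusted p = 0.127) or replicate 1 of the untreated NeuT cells (0.0506).

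The log2 changes of the other copies were also negative in each line, and not all were called. MTND2P28 had 110.3 and 110.6 CPM in untreated and 55.4 and 49.4 CPM in treated Empty cells, and 154.0 and 151 CPM in untreated and 70.4 and 54.2 CPM in treated NeuT cells, log2 changes of -1.08 (adjusted p = 0.000403, edgeR) and -1.29 (adjusted p = 2.15e-05, edgeR). MTCO1P12 changed by -1.86 and -2.16 on the log2 scale in Empty and NeuT cells, MTCO3P12 by -1.79 and -1.31, and MTND4P12 by -1.92 and -2.25, all called by edgeR. The Empty call of MTCO1P12 was lost without either treated Empty library (adjusted p = 0.0611 and 0.134). MTND1P23 was called in NeuT cells (-1.28, adjusted p = 0.00960) and not in Empty cells (-1.04, adjusted p = 0.142). Its NeuT call was lost without replicate 2 of the treated (0.0722) or replicate 1 of the untreated NeuT cells (0.149), and it was called in Empty cells with no filter (0.0463) or without either treated NeuT library (0.0427 and 0.0430). MTCO2P12, at 0.48 to 1.84 CPM, was called in neither line (-0.77 and -0.79), and in NeuT cells only without replicate 1 of the treated ones (-1.26, adjusted p = 0.0410). Exons of other listed genes cover 6.90% of MTATP6P1, 10.6% of MTCO1P12 and 12.6% of MTCO2P12. The difference in change between lines was called for 0 of 9 by edgeR, where 0.00565% of all genes were called. An unadjusted p under 0.05 was found for 1 of the 9 by edgeR, against 1378 of the 17693 genes.

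**Figure D3:**
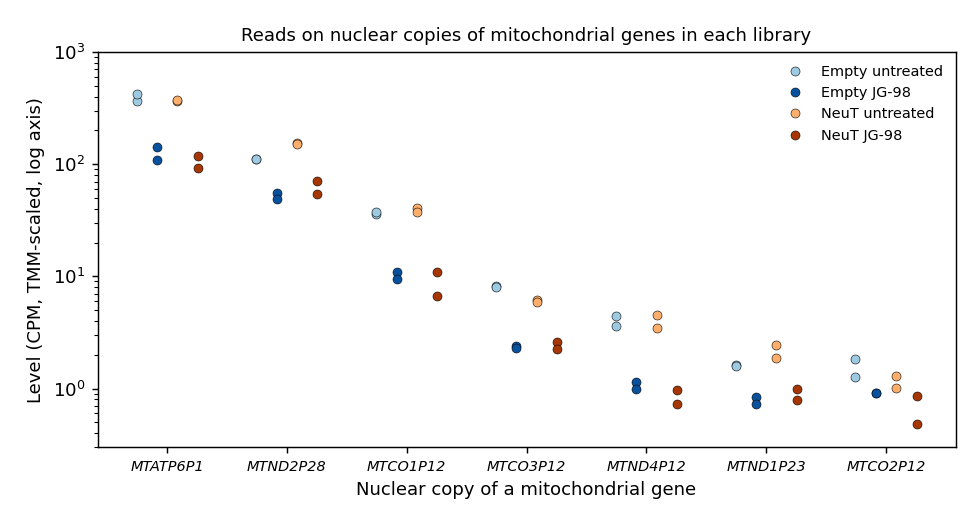
Level of the 7 nuclear copies of mitochondrial genes whose mean count reached 50 (CPM, TMM-scaled, log axis) in each library, ordered by mean count. Treated libraries lie below untreated ones of the same line for all 7, from 367 and 425 down to 144 and 108 CPM for MTATP6P1 in Empty cells. Of all tested genes, 22.2% lie lower without overlap in Empty and 22.9% in NeuT cells.

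Side by side, the fall on the copies was far larger than any change of the 10 genes. Summed over all 404 copies, the level was 530.2 and 592 CPM in untreated and 216 and 173 CPM in treated Empty cells, and 581 and 577 CPM in untreated and 206 and 159 CPM in treated NeuT cells. That left 34.6% of the untreated mean in Empty cells and 31.5% in NeuT cells. POLRMT in the same treated libraries stood at 84.3% and 91.3% of its untreated mean in Empty cells and at 75.1% and 78.5% in NeuT cells. TWNK stood at 89.3% and 84.9% in Empty cells and at 85.8% and 83.1% in NeuT cells. Over the 10 genes the treated libraries lay between 81.1% and 114% (median 94.0%) in Empty cells and between 75.1% and 104% (median 93.1%) in NeuT cells. Over the 9 tested copies they lay between 21.3% and 59.1% (median 29.4%) in Empty cells and between 16.2% and 73.9% (median 33.8%) in NeuT cells.

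On scaled levels, replicate 2 had the lower summed copy level in treated Empty cells (30.8% of the untreated mean against 38.5%, replicate 1 being the shallower library) and in treated NeuT cells (27.4% against 35.6%). TFAM stood at 93.9% and 92.5% of its untreated mean in Empty cells and at 94.7% and 90.9% in NeuT cells. Treated replicate 2 was the lower for 6 of the 10 members in both lines (SLIRP, TEFM, TFAM, TFB1M, TFB2M and TWNK). It was the higher for POLRMT, POLG and LRPPRC in both lines, and for POLG2 in Empty cells only. Between lines TFAM differed by -0.54 on the log2 scale without drug, while the summed level of the copies differed by 0.04, or by 0.33 without MTATP6P1. Single copies differed either way between untreated lines: MTND2P28 was called higher in NeuT cells (0.47, adjusted p = 0.00177, edgeR) and MTCO3P12 lower (-0.44, adjusted p = 0.0125, edgeR), the second call being lost without any 1 of the 4 untreated libraries (adjusted p = 0.0593 to 0.101). The relation between the 2 readouts was not tested.

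**Figure D4:**
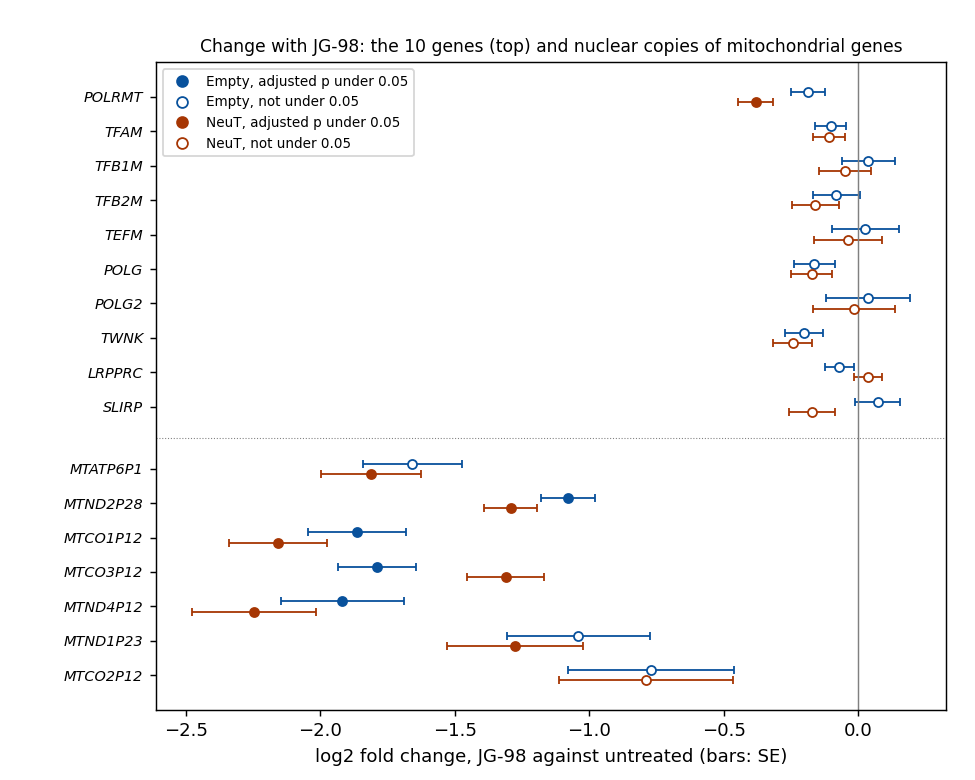
Log2 fold change with JG-98 against untreated cells (horizontal axis, bars are standard errors) for the 10 genes above the dotted line and the 7 copies with a mean of at least 50 counts below it, in Empty and NeuT cells, filled where the adjusted p was under 0.05. The 10 genes lie between -0.38 and 0.07 and the copies between -2.25 and -0.77.

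A wider list of 79 genes of mitochondrial DNA upkeep, RNA processing, RNA modification, nucleotide supply and transcriptional regulators was counted in the same fit, and 78 were tested, without MRM1. With JG-98 edgeR called 0 of 78 in Empty cells, where 0.339% of all genes were called (1 of 78 by DESeq2 and 0 by limma-voom). There 10 of 78 had an unadjusted p under 0.05 by edgeR, against 1739 of the 17693 genes. In NeuT cells edgeR called 6 of 78, all 6 lower, where 3.01% of all genes were called and 1.01% lower. The median log2 change of the list was -0.03 in Empty and -0.08 in NeuT cells. The 6 were TRMT10C, the methyltransferase subunit of the mitochondrial RNase P that frees the 5′ ends of tRNAs, ELAC2, the nuclease that frees their 3′ ends, DHX30 and FASTKD2, which act in mitochondrial RNA granules and ribosome assembly, TRMU, which thiolates tRNAs, and ATAD3A, a membrane protein associated with nucleoids, whose near-identical neighbour ATAD3B could share its reads. Of these 6, TRMT10C had the largest change in NeuT cells, -0.32 (SE 0.080, adjusted p = 0.0372, edgeR), from 40.4 and 45.1 CPM to 36.8 and 31.7 CPM, and its change in Empty cells was 0.01 (adjusted p = 0.983, edgeR). ELAC2 had the lowest adjusted p in NeuT cells (-0.24, SE 0.053, adjusted p = 0.0182, edgeR), from 170 and 173 CPM to 148 and 141 CPM, and its change in Empty cells was -0.20 (SE 0.053, adjusted p = 0.157, edgeR). The latter passed with DESeq2 (0.0482) and without either treated NeuT library (0.0131 and 0.0127). Averaged over the lines 7 of 78 were called, all lower, where 3.97% of all genes were called and 1.58% lower. They were these 6 without TRMT10C, the regulator PPARGC1B, and PDE12, which trims poly(A) tails of mitochondrial RNA (-0.20, SE 0.043, adjusted p = 0.0128, edgeR) and was named after its values were seen. That count was 1 or 2 without replicate 1 of the treated Empty cells or any 1 of the untreated libraries, and 11 without replicate 1 of the treated NeuT cells. PDE12 itself was lost without replicate 1 of the treated Empty cells or any 1 of the untreated libraries (adjusted p = 0.0676 to 0.0997).

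The count of 6 in NeuT cells rests on the whole fit. It was 0 when only the 4 NeuT libraries entered, 0 without either untreated Empty library or without replicate 2 of the untreated NeuT cells, 1 without replicate 1 of those, 3 without replicate 2 of the treated NeuT cells or either treated Empty library, and 10 without replicate 1 of the treated NeuT cells.

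Between untreated lines 47 of the 78 were called, 35 lower and 12 higher in NeuT cells, where 42.0% of all genes were called and 20.8% lower. The count was 30 without replicate 1 of the untreated Empty cells and 31 without replicate 1 of the untreated NeuT cells. Of 13 nucleotide supply genes 8 were called higher and 2 lower. The counts were 0 higher and 10 lower of 16 for transcription and DNA upkeep, 1 higher and 12 lower of 23 for RNA processing and decay, 1 higher and 7 lower of 18 for RNA modification, and 2 higher and 4 lower of 8 for the regulators. The difference between these groups was not tested. RRM2B, a ribonucleotide reductase subunit that supplies nucleotides outside S phase, had 85.8 and 91.5 CPM in Empty and 176 and 174 CPM in NeuT cells (log2 difference 0.98, SE 0.057, adjusted p = 5.23e-10, edgeR). ABAT, which takes part in mitochondrial nucleoside metabolism, was higher by 1.01 (SE 0.11, adjusted p = 1.52e-06, edgeR). The nuclease and helicase DNA2 differed by -0.92 (SE 0.10, adjusted p = 1.42e-06), by the same test.

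Among the 8 regulators, NRF1 had 18.7 and 20.3 CPM in untreated Empty and 9.08 and 11.6 CPM in untreated NeuT cells, a log2 difference of -0.91 (SE 0.11, adjusted p = 5.20e-06, edgeR). The coactivator PPARGC1B differed by -0.86 (adjusted p = 3.30e-07), YY1 by -0.32 (adjusted p = 0.000115) and PPRC1 by -0.29 (adjusted p = 0.000996), all called lower in NeuT cells by edgeR. ESRRA was called higher (0.22, adjusted p = 0.0139), a call lost with total counts (0.15, adjusted p = 0.0828) and without replicate 2 of the untreated NeuT cells or either untreated Empty library (adjusted p = 0.0672 to 0.124). PPARGC1A was called higher (2.39, SE 0.75, adjusted p = 0.0163, edgeR) at a mean of only 7.75 counts, and that call was lost with DESeq2 (adjusted p = 0.0506) and without any 1 of the 4 untreated libraries (adjusted p = 0.0572 to 0.144). The GABP subunits GABPA (-0.11, adjusted p = 0.240) and GABPB1 (-0.13, adjusted p = 0.209) did not pass, though GABPB1 did with total counts (-0.20, adjusted p = 0.0493). With JG-98 edgeR called 0 of the 8 regulators in either line, where 0.339% of all genes were called in Empty and 3.01% in NeuT cells, and the changes of NRF1 were -0.07 and -0.05 in Empty and NeuT cells. Averaged over the lines PPARGC1B was called lower (-0.26, SE 0.060, adjusted p = 0.0199, edgeR), a call lost without replicate 1 of the treated Empty cells, replicate 2 of the untreated Empty cells or either untreated NeuT library (adjusted p = 0.0606 to 0.153). Its change in Empty cells, -0.31 (adjusted p = 0.174), passed with no filter (0.0199) and without either treated NeuT library (0.0344 and 0.0345).

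**Figure D5:**
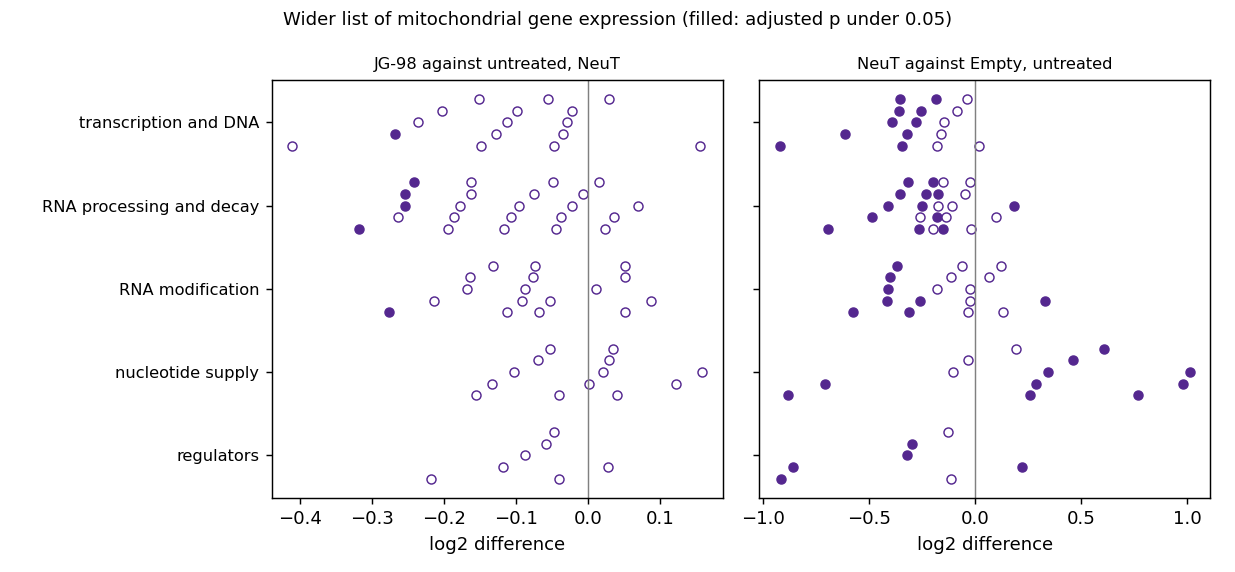
Log2 differences (horizontal axes, each panel with its own scale) for the 76 genes of the wider list whose mean count reached 50, by function, for JG-98 in NeuT cells (left) and for NeuT against Empty cells without drug (right). Filled points have an adjusted p under 0.05, vertical scatter within a row carries no meaning, and 8 filled nucleotide supply genes lie to the right of 0 in the right panel.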

How the data were processed

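RNA of 8 MCF-10A libraries was measured in 4 groups of 2, grouped by their titles. The authors deposited raw counts per gene in the layout of featureCounts, per the file headers, and 0 columns of per-sample values were matched to no sample. Per the submitters' processing notes the tools were Trim Galore 0.5.0, FastQC 0.11.7, HISAT2 2.1.0, SAMtools 1.9, featureCounts 1.6.3 and limma, with build hg38 (GRCh38). The annotation release, strand setting and treatment of reads with several matches are not given in the sources used here. The authors also deposited, per line, a table with a log2 fold change, mean log2 expression, test score, p-value and adjusted p-value for 17698 genes, per the file headers.

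The deposited counts went unchanged into edgeR 4.0.16 (R 4.3.3; TMM scaling, filterByExpr with a minimum count of 10 and total of 15, a robust quasi-likelihood fit of all 8 libraries with 1 coefficient for each group, Benjamini-Hochberg adjustment over 17693 genes). Standard errors are the size of a log2 change over the square root of its F statistic. Symbols were looked up in a name table holding 60261 of 60617 identifiers. RPKM and CPM values were computed here from the counts. The likeness to POLRMT used log2(CPM + 1). Copies were aligned to mitochondrial transcripts of GENCODE 29 with Biopython 1.88. The script was tested on simulated data. Alternatives were limma-voom (limma 3.58.1), DESeq2 1.42.0, other scalings and filters, a replicate block and leaving out each library.

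A count of 0 allows up to 3 counts, which is 0.0528 to 0.0803 CPM, and such limits cover counting error only, as PCR reads are not independent molecules. Replicates differed by more than sampling noise, with a chi-square per gene of 4.43 to 21.0, the highest in treated NeuT cells, so none was merged with another. The 10 members, the wider list and the comparisons were chosen with earlier results of these data known. Named are all members, the copies with a mean of at least 50 counts (at most 2 for each gene of origin), the wider-list genes called with the drug, its 3 largest differences each way between untreated lines, its 8 regulators, and the 3 genes most like POLRMT. A result that this rule names is not reported here.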

Additional observations from a re-analysis of the deposited data

How the results depend on the processing

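Each result was recomputed with other scaling (RLE, total counts), filters (at least 10 counts in every library, none), tests (DESeq2, limma-voom, edgeR without robust estimation), a fit restricted to the groups compared, a replicate block and without each library. Leaving out a library leaves 1 in its group, which is then assumed to vary like the others. Whether equal replicate numbers pair the samples is not given in the labels. Deviations of same-numbered libraries correlated between -0.11 and 0.24 over 9599 genes, with the highest value between treated Empty and treated NeuT cells. Such values cannot decide on pairing, since each group gives only 1 difference between replicates. With the replicate block, members called stayed at 0 in Empty cells, 1 in NeuT cells and 2 on average, and the wider list in NeuT cells had 5 in place of 6, TRMU being lost at an adjusted p of 0.0502 by edgeR. Leaving out a library gave 1 to 2 called members on average over lines, 0 to 3 in NeuT cells (0 without replicate 2 of the untreated NeuT cells; POLRMT, TWNK and SLIRP without replicate 1 of the treated ones) and 0 to 1 for the difference between lines (SLIRP without replicate 1 of the treated NeuT cells). The wider list gave 0 to 3 in Empty cells, where DESeq2 and no filter each gave 1, and 0 to 10 in NeuT cells, where only the 4 libraries gave 0 and edgeR without robust estimation 2. On average over lines, an analysis added after seeing the data, it gave 1 to 11. Between untreated lines it gave 30 to 51. The summed log2 change of the copies ranged from -1.87 to -1.5 in NeuT cells, was -1.27 in Empty and -1.44 in NeuT cells without MTATP6P1, and was lowest without replicate 1 of the treated NeuT cells. The cause of these shifts was not tested beyond the fewer samples or genes that each alternative holds.

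Total counts in place of TMM moved the share of calls that were higher in NeuT cells from 50.5% to 40.7% without drug and from 52.0% to 41.0% with it, and the median log2 difference of all genes without drug from -0.016 to -0.084. It turned TFB1M between untreated lines to -0.063 and POLG2 between treated lines to -0.024. MTND4P12 between untreated lines turned to 0.0027 with at least 10 counts in every library, 0.0012 with DESeq2 and 0.0013 with RLE, and the TFAM difference in change to 0.00075 with no filter. None of these was called. Total counts also brought the differences of POLRMT between untreated lines (-0.18, adjusted p = 0.0306), TEFM between treated lines (-0.38, 0.0231) and GABPB1 between untreated lines (-0.20, 0.0493) past the threshold by edgeR, and took that of ESRRA below it (0.15, 0.0828).

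Small differences that the full fit did not call changed sign when 1 library was left out. With the drug in Empty cells the ranges were -0.057 to 0.096 for ESRRA, -0.085 to 0.028 for GABPA, -0.17 to 0.022 for NRF1, -0.033 to 0.050 for TRMT10C, -0.16 to 0.23 for POLG2, -0.10 to 0.16 for TEFM and -0.019 to 0.098 for TFB1M. In NeuT cells they were -0.033 to 0.077 for ESRRA, -0.22 to 0.13 for NRF1, -0.092 to 0.056 for POLG2, -0.088 to 0.0021 for TEFM and -0.17 to 0.076 for TFB1M. On average they were -0.087 to 0.11 for POLG2, -0.13 to 0.024 for SLIRP, -0.071 to 0.061 for TEFM and -0.065 to 0.060 for TFB1M. For the difference in change they were -0.13 to 0.13 for POLG, -0.24 to 0.15 for POLG2, -0.20 to 0.065 for TEFM, -0.043 to 0.016 for TFAM, -0.22 to 0.032 for TFB1M and -0.19 to 0.0075 for TFB2M. Between untreated lines they were -0.19 to 0.015 for MTATP6P1, -0.20 to 0.19 for MTND4P12, -0.065 to 0.29 for POLG2, -0.036 to 0.0068 for SLIRP and -0.11 to 0.14 for TFB1M, and between treated lines -0.23 to 0.035 for POLG and -0.10 to 0.25 for POLG2. The POLG value of -0.23, without replicate 1 of the treated Empty cells, was called (adjusted p = 0.0318 by edgeR). Among the members POLG2 and TEFM had the lowest levels and the largest standard errors.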
